A study of Mus musculus with 6 samples.

Results

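The genes described here are 10 members of the actin-sensing transcription pathway downstream of formins: the serum response factor Srf, its coactivators Mkl1 and Mkl2 (current symbols Mrtfa and Mrtfb), the actins Actb, Actg1 and Acta2, and the adhesion and filament genes Vcl, Zyx, Tpm4 and Cnn2. They were taken by name, as the listed rows present in all 6 tables, and make up 10 of the 23746 gene loci. All 10 had an OK status in the 6 libraries. In each comparison they passed the filter on low values, a mean FPKM of at least 1. Marrow of C57BL/6 mice aged 12 weeks was studied in pools of 4 mice per genotype: KO (Diap1 -/-), Het (Diap1 +/-) and WT (wild type), where Diap1 is the formin gene now named Diaph1. From each pool, Gr1+Mac1+ myeloid cells were captured on magnetic beads, and the cells left over were depleted to uncommitted Lin- progenitors. The study thus holds 6 libraries, 1 for each genotype and fraction, and asks how expression differs with the number of intact Diap1 copies. How the null allele was made and the sex of the mice are not given in the labels, and each genotype is 1 pool, so the spread between mice within a genotype was not measured.

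Formins build straight actin filaments and so draw on the store of free actin monomers. MRTFs bind free monomers and are held out of the nucleus by them; when monomers are used up, MRTFs enter the nucleus and drive SRF-dependent transcription of actin and actin-binding genes. Many target genes carry an SRF binding element named the CArG box, a run of A and T letters between CC and GG. SRF also works with a second group of partners, the ternary complex factors, on immediate-early genes. In blood, SRF and MRTF are known for their part in neutrophil migration and in megakaryocyte maturation.

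To show where the named element stands, the RefSeq promoter windows (GRCm38.p6, 250 bases before to 50 after each transcription start) were searched for the full CArG box, which reads as a CArG box on both strands. Of the 10 members, 9 had an entry, Mkl1 and Mkl2 under their current symbols, and Actb had none. The 9 genes had 12 windows. A full box was found in 4 of the 9 genes, Srf, Actg1, Cnn2 and Vcl. Of all 32851 windows, 1.63% held one, which is a share of windows and not of genes. The members were listed as genes of the SRF pathway, so no enrichment is read from these counts. The window of Srf held 2 boxes, CCATATAAGG beginning 82 bases and CCATAAAAGG beginning 62 bases before the start. Actg1 held CCATATATGG beginning 90 bases before the start, and the box of Cnn2 (56 bases before) and that of Vcl (227 bases before) were the same, CCTTATAAGG. Acta2, the smooth muscle actin long used to study this element, held no full box but 2 runs that differ from it at a single letter; a full box or such a run was found in 21.1% of all windows. The upstream 250 bases of the 4 genes and of Acta2 are printed because the genes that share this element had different ratios between the fractions, given below; capitals mark the boxes, or the near matches in Acta2.
Srf (chr17:46556163-46556412, minus strand): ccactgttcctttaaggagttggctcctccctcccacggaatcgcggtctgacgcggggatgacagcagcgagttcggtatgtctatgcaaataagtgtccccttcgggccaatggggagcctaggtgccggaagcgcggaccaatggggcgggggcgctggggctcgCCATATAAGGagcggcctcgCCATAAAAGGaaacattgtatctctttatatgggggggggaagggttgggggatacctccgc
Actg1 (chr11:120348496-120348745, minus strand): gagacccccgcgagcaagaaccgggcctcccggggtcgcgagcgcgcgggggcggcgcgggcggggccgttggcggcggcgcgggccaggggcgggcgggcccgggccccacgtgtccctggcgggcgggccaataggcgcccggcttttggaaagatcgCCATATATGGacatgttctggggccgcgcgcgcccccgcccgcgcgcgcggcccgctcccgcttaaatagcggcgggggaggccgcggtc
Cnn2 (chr10:79988350-79988599, plus strand): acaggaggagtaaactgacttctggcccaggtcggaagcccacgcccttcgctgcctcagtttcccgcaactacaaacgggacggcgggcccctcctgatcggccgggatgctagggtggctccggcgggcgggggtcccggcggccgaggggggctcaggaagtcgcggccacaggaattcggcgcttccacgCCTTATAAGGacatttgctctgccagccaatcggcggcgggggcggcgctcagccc
Vcl (chr14:20929148-20929397, plus strand): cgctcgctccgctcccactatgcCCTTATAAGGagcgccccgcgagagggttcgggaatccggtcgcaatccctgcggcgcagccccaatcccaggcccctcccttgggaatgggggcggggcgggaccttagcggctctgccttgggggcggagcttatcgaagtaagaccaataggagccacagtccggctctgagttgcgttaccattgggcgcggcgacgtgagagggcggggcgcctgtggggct
Acta2 (chr19:34255374-34255623, minus strand): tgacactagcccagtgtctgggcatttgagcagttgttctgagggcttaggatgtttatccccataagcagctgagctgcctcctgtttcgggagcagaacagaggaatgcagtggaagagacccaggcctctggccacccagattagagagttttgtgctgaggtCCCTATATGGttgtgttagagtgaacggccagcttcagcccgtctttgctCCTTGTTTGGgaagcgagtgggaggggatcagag

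The targeted gene followed the labels. Diap1 had an FPKM (fragments scaled to transcript length and to the library total) of 4.07 in KO, 34.1 in Het and 57.1 in WT Gr1+Mac1+ cells, and of 6.07 in KO, 24.2 in Het and 36.0 in WT Lin- cells. Between 10795 and 11315 loci reached an FPKM of 1 in a library. The Gr1+Mac1+ libraries held the neutrophil granule markers (11 of 12 symbols matched, summed FPKM 137962 to 166559) and Itgam, the Mac1 chain, at 293 to 311; Ly6g, the defining Gr1 gene, matched no row. The progenitor markers Kit and Myb were at 14.9 to 15.7 and 51.7 to 58.8 in Gr1+Mac1+ cells, against 66.4 to 84.7 and 114 to 135 in Lin- cells, whereas Ly6a ran the other way, at 37.4 to 52.4 in Gr1+Mac1+ cells against 3.68 to 6.80 in Lin- cells. The Het Lin- library stood apart: its neutrophil granule markers summed to 8149, against 68.8 in KO and 51.6 in WT Lin- cells. Its values for the members are therefore given with that sum beside them, and the comparison of KO with WT, which does not use it, comes first.

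The members ranged from an FPKM of 0.932 (Acta2, WT Lin-) to 3494 (Actb, Het Gr1+Mac1+), and their order differed between the fractions. In all 3 Gr1+Mac1+ libraries the order by FPKM was Actb, Actg1, Cnn2, Zyx, Tpm4, Vcl, Mkl1, Srf, Acta2 and Mkl2, and only Srf and Acta2 in the WT library had overlapping intervals among neighbours. In the Lin- libraries Actb and Actg1 were followed by Vcl, then by Zyx and Cnn2 in KO and WT cells and by Cnn2 and Zyx in Het cells. Lin- neighbours with overlapping intervals were Tpm4 and Srf in KO, Vcl, Cnn2 and Zyx as well as Mkl2 and Acta2 in Het, and Zyx and Cnn2 as well as Srf and Tpm4 in WT cells. The intervals are the deposited bounds, 2 SD of counting error to each side, and do not cover the spread between mice. Mkl1 and Mkl2 have several starts, and their intervals may hold more than counting error. Those of Mkl2 were uneven between libraries. In Gr1+Mac1+ cells its width corresponds to 35 fragments in KO, 335 in Het and 261 in WT, at an FPKM of 2.49, 3.05 and 2.13. The cause was not tested.

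**Figure D1:**
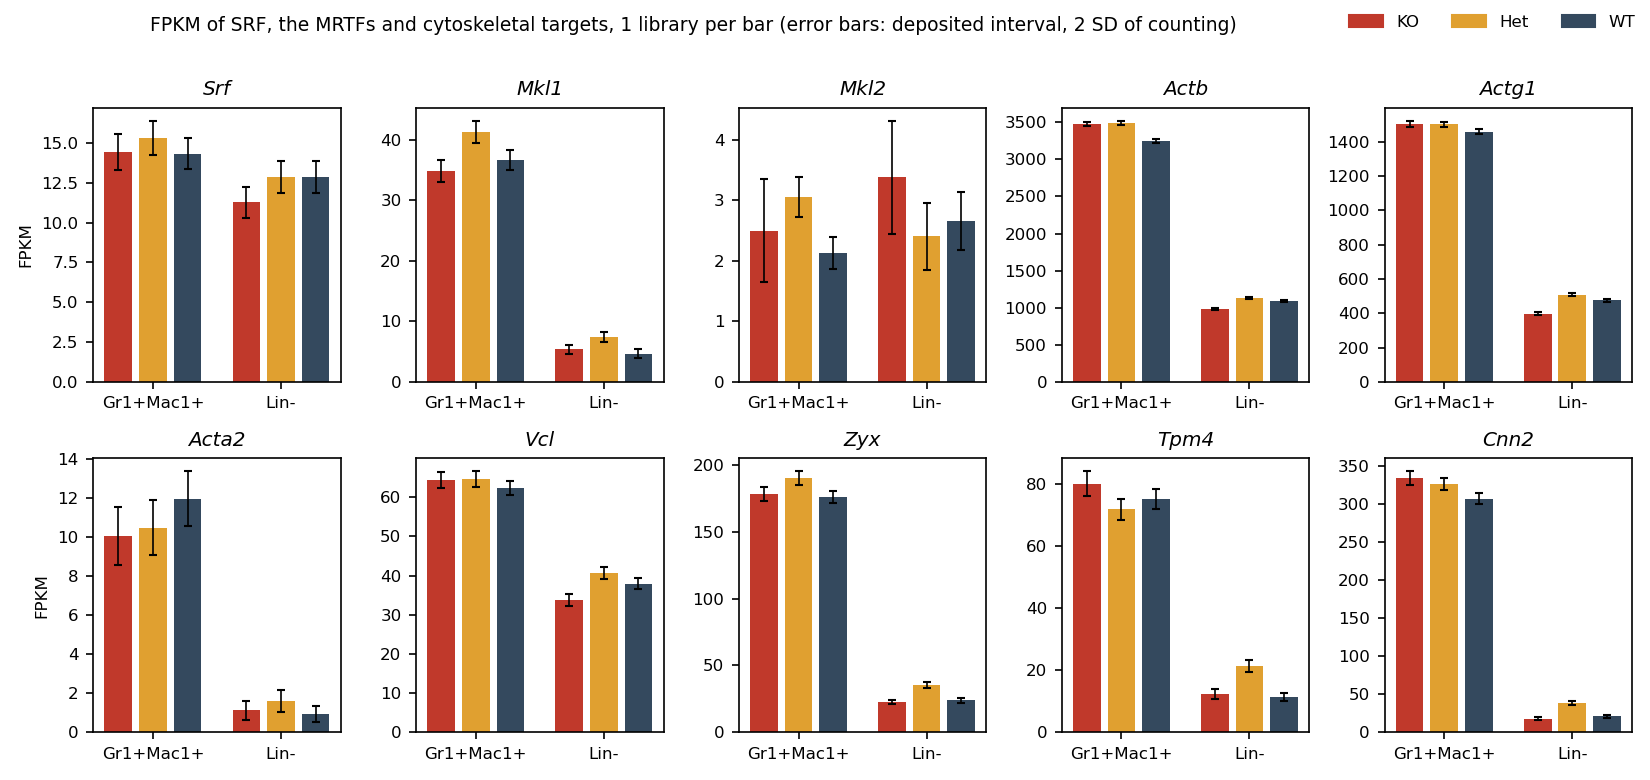
FPKM of the 10 members in the 6 libraries, KO, Het and WT from left to right in Gr1+Mac1+ cells and then in Lin- cells; each bar is 1 library, the error bar is the deposited interval and each panel has its own axis from 0. The panels of the actins, Mkl1, Vcl, Zyx, Tpm4 and Cnn2 show the Gr1+Mac1+ bars all above the Lin- bars by a wide margin, with Cnn2 at 307 to 334 in Gr1+Mac1+ and 17.9 to 39.1 in Lin- cells, while Srf differs little and Mkl2 overlaps.

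The regulators were of low to moderate level. Srf, the DNA-binding factor itself, had an FPKM of 14.4 in KO, 15.3 in Het and 14.3 in WT Gr1+Mac1+ cells, and of 11.3 in KO, 12.9 in Het and 12.9 in WT Lin- cells. All 3 Gr1+Mac1+ values lay above all 3 Lin- values, but the span from lowest to highest was narrow. Mkl1, the monomer-sensing coactivator MRTF-A, stood at 34.8 in KO, 41.2 in Het and 36.6 in WT Gr1+Mac1+ cells, and at 5.36 in KO, 7.42 in Het and 4.67 in WT Lin- cells. Its groups of fractions did not overlap, and the Het library was the highest in each fraction. Mkl2, the related coactivator MRTF-B, had an FPKM of 2.49 in KO, 3.05 in Het and 2.13 in WT Gr1+Mac1+ cells, and of 3.38 in KO, 2.41 in Het and 2.66 in WT Lin- cells, so that the fractions overlapped. FPKM being per length, the Mkl1 to Mkl2 ratio can be read as a ratio of transcript levels: it was 14.0 in KO, 13.5 in Het and 17.2 in WT Gr1+Mac1+ cells, and 1.59 in KO, 3.08 in Het and 1.76 in WT Lin- cells.

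The cytoplasmic actins were the most abundant members. Actb, beta-actin, had an FPKM of 3482 in KO, 3494 in Het and 3248 in WT Gr1+Mac1+ cells, and of 988 in KO, 1135 in Het and 1095 in WT Lin- cells. Actg1, gamma-actin, stood at 1503 in KO, 1501 in Het and 1459 in WT Gr1+Mac1+ cells, and at 396 in KO, 508 in Het and 475 in WT Lin- cells. For both genes the KO Lin- library was the lowest of the 6, and the WT library was the lowest of the Gr1+Mac1+ libraries. The ratio of Actb to Actg1 kept to a narrow range, 2.32 in KO, 2.33 in Het and 2.23 in WT Gr1+Mac1+ cells, and 2.49 in KO, 2.23 in Het and 2.30 in WT Lin- cells. Both actins have close paralogs and processed pseudogenes, so fragments may be split between copies. Acta2, smooth muscle alpha-actin, had an FPKM of 10.1 in KO, 10.5 in Het and 12.0 in WT Gr1+Mac1+ cells, and of 1.13 in KO, 1.62 in Het and 0.932 in WT Lin- cells. It made up 0.202% to 0.254% of the summed FPKM of the 3 actins in Gr1+Mac1+ cells and 0.0594% to 0.0988% in Lin- cells.

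Among the adhesion and filament genes, Vcl encodes vinculin, which ties adhesion sites to actin filaments. Its FPKM was 64.4 in KO, 64.6 in Het and 62.4 in WT Gr1+Mac1+ cells, and 33.7 in KO, 40.6 in Het and 37.9 in WT Lin- cells. Zyx, the focal adhesion protein zyxin, was at 178 in KO, 190.0 in Het and 176 in WT Gr1+Mac1+ cells, and at 22.8 in KO, 35.2 in Het and 24.0 in WT Lin- cells. For both genes the Het library was the highest of its fraction. Tpm4, a tropomyosin that coats actin filaments, was at 80.2 in KO, 71.8 in Het and 75.3 in WT Gr1+Mac1+ cells, and at 12.4 in KO, 21.4 in Het and 11.4 in WT Lin- cells. Cnn2, the calponin found in blood and other non-muscle cells, was at 334 in KO, 326 in Het and 307 in WT Gr1+Mac1+ cells, and at 17.9 in KO, 39.1 in Het and 21.0 in WT Lin- cells. Tpm4 and Cnn2 thus had 2 similar Lin- values, in KO and WT, and a higher one in Het.

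In KO against WT Gr1+Mac1+ cells, none of the 10 members was called. A call required a ratio of 2-fold or more between the FPKM + 1 values, a higher value of 5 FPKM or more, an OK status in the pair of libraries and intervals that stay apart; 0.134% of the 11216 genes tested were called. A second rule was named the 25% rule because the higher value need exceed the lower only by that much. It called none either, where 3.39% of all genes were called. Mkl2 stayed below 5 FPKM in every library, and Acta2 did so in every Lin- library, so neither rule could call them there. The log2 ratios of the members ran from -0.23 for Acta2 (counting SE 0.13) to 0.16 for Mkl2 (counting SE 0.19), with a median of 0.04, against 0.01 over all genes tested. The intervals of 3 members did not overlap, those of Actb (log2 ratio 0.10), Actg1 (0.04) and Cnn2 (0.12), all higher in KO. Intervals apart were found for 10.8% of all genes and 34.1% of the 710 genes with a mean FPKM of at least 100, a group that includes these 3, since abundant genes have narrow intervals. Erythroid markers (9 of 10 symbols matched, none at 0) were lower in KO for all 9 genes, with a summed FPKM of 296 in KO against 491 in WT Gr1+Mac1+ cells; their part in these ratios was not tested.

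In KO against WT Lin- cells, again none of the members was called, by the 2-fold rule (0.157% of 10799 genes called) or by the 25% rule (3.47%). Of the 10 log2 ratios, 6 were negative, with a median of -0.11, against 0.003 over all genes, of which 50.7% were positive. Actg1 had the lowest ratio, -0.26 (counting SE 0.02), followed by Cnn2 at -0.22 (0.10), Srf at -0.18 (0.08), Vcl at -0.17 (0.04) and Actb at -0.15 (0.01), with Zyx at -0.07 (0.08). On the positive side, Mkl2 was at 0.26 (0.18), Mkl1 at 0.17 (0.13), Acta2 at 0.14 (0.22) and Tpm4 at 0.11 (0.11), all with overlapping intervals. Actb, Actg1 and Vcl had intervals apart; this held for 13.6% of all genes and 38.9% of the 839 abundant ones. The megakaryocyte and platelet markers were also lower: all 11 matched, none was at 0, 10 were lower in KO, and their summed FPKM was 255 in KO against 380 in WT Lin- cells, led by Pf4 at 147 in KO against 232 in WT. Their part in these ratios was not tested. In bulk RNA, fewer cells of a type and less RNA per cell cannot be told apart.

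In Het against WT Gr1+Mac1+ cells, no member was called by the 2-fold rule (0.116% of 11242 genes) or by the 25% rule (4.42%). The median log2 ratio was 0.09, against -0.0003 over all genes, and 8 of 10 members had a positive ratio. Mkl2 had the highest, 0.37, and stayed below the level of 5 that the rules ask for. Its counting SE of 0.08 rests on the narrower Mkl2 intervals of this pair, against 0.19 in KO against WT Gr1+Mac1+ cells. Mkl1 followed at 0.17 (counting SE 0.05). Intervals were apart for 6 members, Mkl1, Mkl2, Actb, Actg1, Zyx and Cnn2, all higher in Het, where this was so for 16.7% of all genes and 44.1% of the 699 abundant ones. The 9 erythroid markers were lower here too, all by the 25% rule, with a summed FPKM of 343 in Het against 491 in WT Gr1+Mac1+ cells, and the stromal marker Col1a1 was higher by the 2-fold rule, at 9.87 in Het against 4.42 in WT. Their part in these ratios was not tested.

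In Het against WT Lin- cells, no member was called by the 2-fold rule (1.34% of 10936 genes, 1.27% as higher), but 4 were higher by the 25% rule, which called 4.65% of all genes, 3.84% as higher. These were Cnn2, with a log2 ratio of 0.86 (counting SE 0.08), Tpm4 at 0.85 (0.10), Mkl1 at 0.57 (0.12) and Zyx at 0.53 (0.07). Acta2 was at 0.44 (0.22) with overlapping intervals, Actg1 at 0.10 (0.02), Vcl at 0.10 (0.04), Actb at 0.05 (0.01), Srf at 0.0008 (0.07) and Mkl2 at -0.10 (0.15). The median was 0.27, against 0.0004 over all genes, and intervals were apart for 6 members, the 4 called genes and the cytoplasmic actins, and for 14.7% of all genes and 34.6% of the 853 abundant ones.

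**Figure D2:**
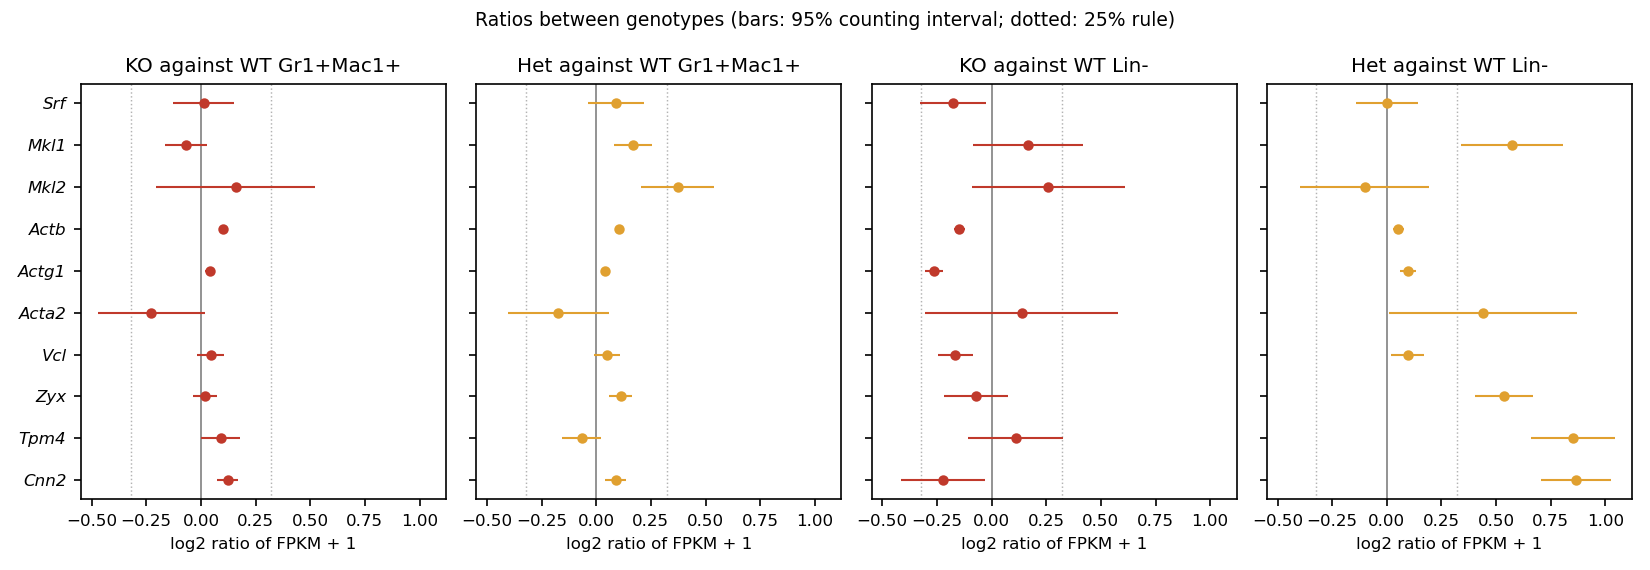
Log2 ratios of FPKM + 1 of the 10 members in KO and Het against WT Gr1+Mac1+ cells (left pair of panels) and KO and Het against WT Lin- cells (right pair); points are single-library ratios, bars are 95% counting intervals and dotted lines mark the 25% rule. Points lie beyond the dotted lines for Mkl1, Zyx, Tpm4, Cnn2 (0.53 to 0.86) and Acta2 (0.44) in Het Lin- cells and for Mkl2 (0.37) in Het Gr1+Mac1+ cells, and the others lie within them.

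The members that were higher in Het Lin- cells were those with the larger ratio between fractions. In the KO pool, whose libraries take no part in the comparison of Het with WT, the log2 ratio of Gr1+Mac1+ over Lin- cells was 4.15 for Cnn2, 2.91 for Zyx, 2.60 for Tpm4 and 2.49 for Mkl1, but 0.33 for Srf and -0.33 for Mkl2. Over the 10 members, which are not independent and share the 4 libraries, the ratios had a Pearson r of 0.87 and a Spearman rho of 0.95; over 10673 genes Pearson r was 0.45. As a share of the WT Gr1+Mac1+ level, a setting chosen after the data were seen, the difference of Het minus WT Lin- FPKM was 5.90% for Cnn2, 6.37% for Zyx, 7.53% for Mkl1 and 5.78% for Acta2, beside 5.48% for the summed neutrophil granule markers. It was larger for Tpm4, at 13.3%, and smaller for Vcl at 4.30%, Actg1 at 2.27%, Actb at 1.24% and Srf at 0.0552%, while Mkl2 was lower in Het. Other marker sums gave 5.28% (myeloid selection), 5.98% (monocyte and macrophage), 4.64% (B lineage) and 6.27% (erythroid). The share was 231% for megakaryocyte and platelet and 1092% for stromal, smooth muscle and endothelial markers. It was -4.86% for progenitor and -0.692% for T and NK cell markers. The part of any cell type in these shares was not tested.

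Other markers were also higher in Het than in WT Lin- cells. All 11 neutrophil granule markers and all 5 matched markers of the myeloid selection were higher in Het, with S100a8 at 2935 in Het against 21.1 in WT and S100a9 at 2934 in Het against 17.8 in WT. The megakaryocyte and platelet markers summed to 525 in Het against 380 in WT. Stromal, smooth muscle and endothelial markers summed to 778 in Het against 411 in WT, with Rgs5 at 0 in both. Monocyte and macrophage markers summed to 60.8 in Het against 27.0 in WT. The part of any of these cells in the ratios of the members was not tested.

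**Figure D3:**
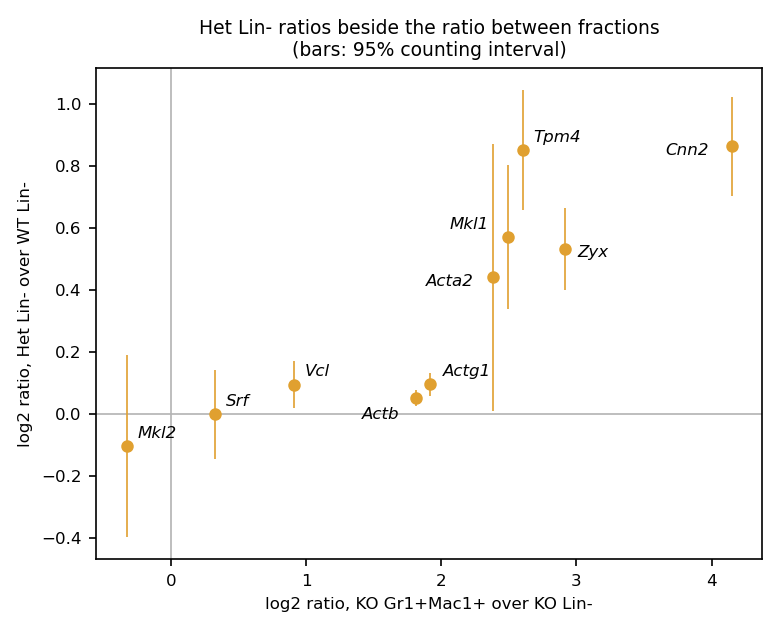
Log2 ratio of Het over WT Lin- cells (vertical axis, bars 95% counting intervals) beside the log2 ratio of KO Gr1+Mac1+ over KO Lin- cells (horizontal axis) for the 10 members; no library is used on both axes. Members with a horizontal value above 2 lie between 0.44 and 0.86 on the vertical axis, and the other members lie between -0.10 and 0.10.

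In KO against Het cells the ratios in the Lin- fraction were mostly negative. Only Cnn2 was called by the 2-fold rule: it was lower in KO, at a log2 ratio of -1.09 (counting SE 0.09), where 1.22% of 10961 genes were called, 1.15% as lower. The 25% rule called 5 members as lower, Cnn2, Tpm4 (-0.74), Zyx (-0.61), Mkl1 (-0.40) and Actg1 (-0.36), and 4.06% of all genes, 3.31% as lower. Of the 10 members, 9 had a negative ratio, with a median of -0.33. This comparison shares the Het Lin- library, with its granule markers at 8149 against 68.8 in KO, so it is no second observation of the higher values in Het. In Gr1+Mac1+ cells no member was called in KO against Het by the 2-fold rule (0.134% of 11224 genes) or the 25% rule (6.5%), and the ratios ran from -0.24 for Mkl1 to 0.16 for Tpm4.

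Between the fractions, Mkl1, the actins, Vcl, Zyx, Tpm4 and Cnn2 were all higher in Gr1+Mac1+ cells. With limma on log2(FPKM + 1) and the pool as a block, 9 of the 10 members were higher in Gr1+Mac1+ than in Lin- cells at a Benjamini-Hochberg adjusted p under 0.05, none was lower, and Mkl2 was not called. Of all 11572 genes tested, 30.3% were called as higher in Gr1+Mac1+ cells and 51.5% as lower, that is 3507 and 5957 genes; with libraries rescaled by their median ratio the split was 4328 and 4688, with the same count of members. The median log2 difference of all genes was -0.33, and the difference of each member is followed by its value relative to that median. The 3 pools differ in genotype, so the p-values rest on 2 residual degrees of freedom, moderated across genes, that hold differences between genotypes as well as noise. Cell type markers also differed: monocyte and macrophage markers (9 of 10 matched) summed to 561 to 589 in Gr1+Mac1+ and 27.0 to 60.8 in Lin- cells. B lineage markers (6 of 6) summed to 250.2 to 289 in Gr1+Mac1+ and 10.6 to 24.6 in Lin- cells. Megakaryocyte and platelet markers summed to 58.4 to 75.7 in Gr1+Mac1+ and 255 to 525 in Lin- cells. Erythroid markers summed to 296 to 491 in Gr1+Mac1+ and 788 to 819 in Lin- cells. Of the 9 erythroid markers tested by limma, 6 were lower and 2 higher in Gr1+Mac1+ cells. None of these markers was at 0 in any library, and their part in the differences of the members was not tested.

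Cnn2 had the largest difference of the members, with a mean FPKM of 322 ± 14.0 in Gr1+Mac1+ and 26.0 ± 11.5 in Lin- cells (SD, n = 3 pools). Its log2 difference by limma was 3.66 (SE 0.23, adjusted p = 0.00023), or 3.99 relative to all genes, which 97.5% of genes fell short of. Zyx averaged 181 ± 7.57 in Gr1+Mac1+ and 27.3 ± 6.84 in Lin- cells, a limma log2 difference of 2.71 (SE 0.12, adjusted p = 0.00013) or 3.04 relative to all genes. Tpm4 averaged 75.8 ± 4.18 in Gr1+Mac1+ and 15.0 ± 5.50 in Lin- cells, a limma difference of 2.31 (SE 0.21, adjusted p = 0.000632) or 2.64 relative. These 3 filament and adhesion genes were higher in Gr1+Mac1+ cells in each of the 3 pools, by the least in the Het pool. Vcl rose less, to 63.8 ± 1.20 in Gr1+Mac1+ cells against 37.4 ± 3.48 in Lin- cells, with a limma difference of 0.76 (SE 0.08, adjusted p = 0.000826) or 1.09 relative.

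The cytoplasmic actins rose together. Actb averaged 3408 ± 138 in Gr1+Mac1+ cells and 1073 ± 75.6 in Lin- cells, with a limma log2 difference of 1.67 (SE 0.09, adjusted p = 0.000171) or 1.999 relative to all genes. Actg1 averaged 1488 ± 24.7 in Gr1+Mac1+ and 460.02 ± 57.5 in Lin- cells, with a limma difference of 1.70 (SE 0.10, adjusted p = 0.000198) or 2.03 relative. By rank among all loci, Actb stood at place 18 or 19 in Gr1+Mac1+ libraries and at 101 to 110 in Lin- libraries. Acta2 averaged 10.9 ± 0.996 in Gr1+Mac1+ and 1.23 ± 0.357 in Lin- cells, with a limma difference of 2.42 (SE 0.14, adjusted p = 0.000199) or 2.75 relative. The stromal, smooth muscle and endothelial markers (15 symbols) summed to 33.6 to 52.1 in Gr1+Mac1+ cells and 411 to 778 in Lin- cells; in Gr1+Mac1+ cells Des and Pdgfra were at 0 in all 3 libraries, and Myh11, the smooth muscle myosin, was at 0.318 to 0.434, against 0.0939 to 0.104 in Lin- cells. That sum is mostly Col1a1, Col1a2, Bglap and Sparc. Of the endothelial markers, Pecam1 (14.7 to 18.8 in Gr1+Mac1+, 8.16 to 9.62 in Lin- cells) was higher in Gr1+Mac1+ cells, as Myh11 was. Cdh5 was higher there too (0.722 to 0.912 in Gr1+Mac1+, 0.0583 to 0.263 in Lin- cells). Kdr went the other way, at 0.124 to 0.546 in Gr1+Mac1+ and 0.753 to 1.12 in Lin- cells. The part of these cells in the difference of Acta2 was not tested.

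Of the regulators, Mkl1 differed most, with a mean of 37.6 ± 3.30 in Gr1+Mac1+ and 5.82 ± 1.43 in Lin- cells and a limma log2 difference of 2.52 (SE 0.10, adjusted p = 0.000124) or 2.85 relative to all genes. Srf averaged 14.7 ± 0.541 in Gr1+Mac1+ and 12.3 ± 0.918 in Lin- cells, with a limma difference of 0.24 (SE 0.07, adjusted p = 0.0336) or 0.57 relative. That call was lost when any 1 pool was left out (adjusted p = 0.0805 without the Het pool, 0.074 without WT and 0.154 without KO). Mkl2 averaged 2.56 ± 0.465 in Gr1+Mac1+ and 2.82 ± 0.505 in Lin- cells, with a limma difference of -0.10 (SE 0.15, adjusted p = 0.553) or 0.23 relative. The intervals of its fractions overlapped in all 3 pools. Srf, with the 2 CArG boxes printed above, had a smaller estimate than Cnn2, Actg1 and Vcl, which have 1 each. Mkl1, Zyx and Tpm4, with no full box in their windows, had larger estimates than Srf. These estimates were not tested against each other, and the part of the boxes in them was not tested.

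**Figure D4:**
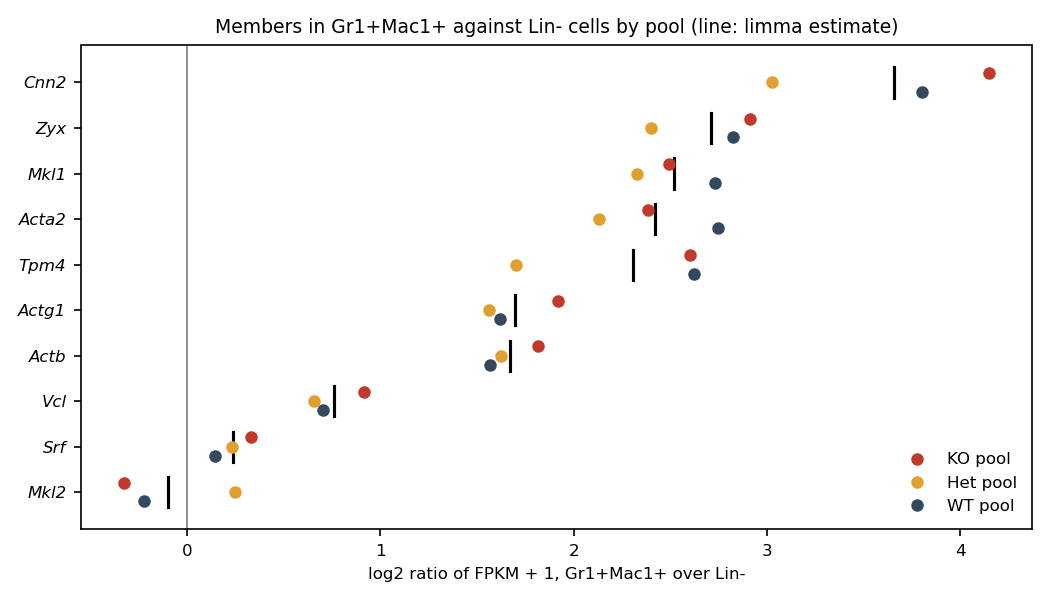
Log2 ratio of FPKM + 1 in Gr1+Mac1+ over Lin- cells for each member, with a point for the KO, Het and WT pool and a black line for the limma estimate. All points of 9 members lie right of 0, from Srf at 0.24 to Cnn2 at 3.66 by the estimate, and those of Mkl2 lie on both sides.

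Other genes of the pathway were read from lists given by name. Of 38 other cytoskeletal target genes, 30 could be tested between the fractions; by limma 23 were higher in Gr1+Mac1+ and 7 in Lin- cells, and the list median was 1.56, against -0.33 for all genes; after rescaling, Csrp1 was no longer among the lower genes, which were 6. The integrin chain Itgb2 led at 4.58 (limma adjusted p = 0.000411). It pairs with Itgam in Mac1, by which these cells were captured, so its difference is not independent of the selection. Next were the matrix protein gene Thbs1 at 4.11 (limma adjusted p = 0.000253), the filament cross-linker Actn1 at 4.05 (0.000385) and the monomer-binding thymosin Tmsb4x at 4.00 (0.000523). On the other side, the integrin chain Itga5 was lower in Gr1+Mac1+ cells, at -1.84 (limma adjusted p = 0.000125). The most abundant of the list over the 6 libraries were Tmsb4x at a mean FPKM of 6403 in Gr1+Mac1+ and 435 in Lin- cells, the profilin Pfn1 at 1367 in Gr1+Mac1+ and 842 in Lin- cells, and the filament-severing cofilin Cfl1 at 1086 in Gr1+Mac1+ and 749 in Lin- cells. Several classical targets of fibroblasts and muscle were near 0: Ankrd1, Ctgf, Cyr61, Myl9 and Parva were below an FPKM of 1 in all 6 libraries.

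The relatives of the members divided by isoform. Of 10 other actin, tropomyosin, calponin and transgelin genes, 6 could be tested, with 4 higher and 2 lower in Gr1+Mac1+ cells. Tpm3, at a mean of 295 ± 14.5 in Gr1+Mac1+ and 116 ± 7.55 in Lin- cells (SD, n = 3 pools), was higher (limma log2 difference 1.34, adjusted p = 0.000145), as was Acta1 at 1.33 (0.000299). Tpm1, at 12.2 ± 1.73 in Gr1+Mac1+ and 42.8 ± 2.70 in Lin- cells, was lower (-1.74, limma adjusted p = 0.000138), and so was Cnn3 at -1.30 (0.000482). Tpm4 and Cnn2 thus had the opposite direction to Tpm1 and Cnn3 of the same families. The smooth muscle genes Actg2 and Cnn1 were below 1 in every library. The transgelin gene Tagln was at 2.34 to 2.93 in Gr1+Mac1+ and 0.638 to 1.40 in Lin- cells (limma log2 difference 0.94, adjusted p = 0.00262).

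Cofactors of SRF and regulators of MRTF, taken as 1 list, were called in both directions. Of the cofactors Elk1, Elk3 and Elk4, Elk3 was higher at 0.80 (limma adjusted p = 0.000755), Elk4 lower at -0.24 (0.0304) and Elk1 not called. Of 11 cofactors and regulators of MRTF, 8 could be tested, and by limma 3 were higher and 3 lower in Gr1+Mac1+ cells, where 30.3% of all genes were higher and 51.5% lower; after rescaling 4 were higher and 2 lower, as Elk1 joined the higher genes and Elk4 was no longer called. Mical1, an oxidase that takes actin filaments apart, was at 37.8 ± 1.75 in Gr1+Mac1+ and 3.67 ± 0.953 in Lin- cells (limma log2 difference 3.07, adjusted p = 0.000124), and the small GTPase Rhoa at 196 ± 12.0 in Gr1+Mac1+ and 123 ± 4.55 in Lin- cells (0.67, limma adjusted p = 0.00124). Kpnb1, the importin that carries cargo into the nucleus, was lower at -1.31 (limma adjusted p = 0.00013), as was Phactr4, an actin-binding regulator of a phosphatase, at -1.18 (0.000266). Myocd, the muscle relative of the MRTFs, was listed at 0 in 4 libraries and below 0.02 in the others. Immediate-early genes driven by SRF with the ternary complex factors were higher in Gr1+Mac1+ cells in 9 of 9 tested cases, with a median of 2.73; Btg2 led at 3.31, and Fos was the most abundant, at 1200.3 ± 56.05 in Gr1+Mac1+ against 180.4 ± 23.2 in Lin- cells.

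Between genotypes these lists were called mostly in comparisons with the Het Lin- library. By the 2-fold rule, 4 of 28 tested cytoskeletal targets were higher in Het than in WT Lin- cells, Itgb2 (FPKM 27.7 in Het, 8.87 in WT), Actn1 (10.4 in Het, 4.37 in WT), Tmsb4x (712 in Het, 310 in WT) and Thbs1 (8.64 in Het, 2.73 in WT), and the same 4 were lower in KO than in Het Lin- cells; of all genes 1.27% were called as higher in Het than in WT and 1.15% as lower in KO than in Het Lin- cells. They were the 4 with the largest difference between fractions named above, and the granule marker sums were 8149 in Het and 51.6 in WT Lin- cells. Itgam, the chain paired with Itgb2 in Mac1, was at 16.9 in Het and 0.640 in WT Lin- cells. In KO against WT cells, no gene of the 4 lists was called by the 2-fold rule in either fraction. By the 25% rule, 1 of 29 tested cytoskeletal targets, Filip1l, and 1 of 10 immediate-early genes, Fosb, were lower in KO Gr1+Mac1+ cells. FPKM was 4.91 in KO and 6.45 in WT for Filip1l and 139 in KO and 177 in WT for Fosb. No other gene of the 4 lists was called there, where the rule called 3.39% of all genes. In KO against WT Lin- cells, Cnn3 (27.8 in KO, 20.9 in WT), 1 of 6 tested relatives of the members, was higher. So was Egr1 (33.2 in KO, 24.6 in WT), 1 of 9 immediate-early genes, and the rule called 3.47% of all genes. The median log2 ratio in KO against WT Gr1+Mac1+ cells was 0.02 for cytoskeletal targets and -0.07 for immediate-early genes, and in Lin- cells -0.03 and 0.03. In Het against WT Lin- cells, 7 of 9 immediate-early genes were higher by the 25% rule, which called 3.84% of all genes as higher, with a median of 0.46.

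The genes most like a member over the 6 libraries were found by the Pearson r of log2(FPKM + 1) among 8722 genes. For Srf these were Dnajc4 (r = 0.999), Map4k1 (0.993) and Akt1 (0.986), all of them higher in the 3 Gr1+Mac1+ than in the 3 Lin- libraries and lowest in the KO Lin- library. Only 2 genes had r above 0.99 with Srf, whereas 1026 did with Actb and 1043 with Acta2; the points of each r share the same 6 libraries and the split into fractions. Actb was most like Ifngr2, Ubtd1 and G6pdx, each with r above 0.999, and Acta2 most like Pid1, Baiap2 and Ptpn1. Among the members, Zyx and Cnn2 had r = 0.999 with each other, and Mkl2 had a negative r with each of the other 9, from -0.42 to -0.32.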

How the data were processed

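Bone marrow fractions of KO, Het and WT mice were profiled by RNA sequencing, with 1 library per genotype and fraction. The deposited values are FPKM per gene locus with the bounds of an interval and a status, per the file headers. TopHat2 2.0.7, Cufflinks 2.0.2 and the build mm10 are named in the submitters' processing notes; their roles are not recorded there, and annotation, strandedness and depth are unknown here. Since FPKM is relative to the library total, very abundant genes lower the others; the 10 most abundant loci held 8.72% to 27.8% of the summed FPKM. The width of the deposited intervals equals 2 SD of a fragment number: below 50 fragments, 67.2% to 68.3% of single-start genes came out whole to within 0.05. For the members, widths correspond to 20 fragments (Acta2, WT Lin-) up to 84351 (Actb, WT Gr1+Mac1+). Mkl1 and Mkl2 have several starts, and their widths may hold more than counting error, unevenly between libraries for Mkl2. Counting SEs of log2 ratios come from these widths, so the same limit applies to those of Mkl1 and Mkl2. None of them covers the spread between mice.

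Ratios were taken on the log2(FPKM + 1) scale, which understates changes of low genes, over loci with a mean FPKM of at least 1 and a name held by 1 locus (23044 of 23746). Between genotypes there is no replicate, so no test was made, and calls follow the rules of size in the text. The comparison of fractions used limma (version 3.58.1 under R 4.3.3), with an intensity trend and the same log2 values, over all loci with a mean FPKM of at least 1. The fit was tried on simulated data with independent noise and no differences between genotypes. That trial does not cover the residuals of these libraries, which hold such differences. The pool was a block because its 2 fractions derive from shared animals according to the labels' protocols. Deviations of its fractions from the fraction means correlated across genes by -0.03 (KO), -0.07 (Het) and 0.10 (WT). Remaining steps ran in Python 3.11.15 (pandas 2.3.3, numpy 2.4.6), with figures from matplotlib 3.10.9. Alternatives were other pseudocounts, level filters, rescaling by the median ratio, the interval criterion, 1.5-fold, no block, no trend and leaving out each pool.

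The members and lists were chosen with earlier results of these data known. The genes named are the members and Diap1; of each other list up to 4 called members with the largest ratio and up to 3 of the most abundant; of marker lists those at or near 0 and the most abundant; and the 3 genes most like Srf, Actb and Acta2. Genes named beyond that rule were chosen after their values were seen. Coordinates are 1-based. Members lie at chromosome 17, 46546839 to 46556162 (Srf); 15, 81012281 to 81190757 (Mkl1); 16, 13256481 to 13417529 (Mkl2); 5, 142903116 to 142906724 (Actb); 11, 120345690 to 120348484 (Actg1); 19, 34241091 to 34255336 (Acta2); 14, 20929433 to 21033673 (Vcl); 6, 42349828 to 42358395 (Zyx); 8, 72135292 to 72153129 (Tpm4); and 10, 79988600 to 79995400 (Cnn2), on mm10. By GENCODE M21, genes on the other strand overlap the loci of Srf, Mkl1, Mkl2, Vcl, Zyx and Tpm4, and fragments of both strands cannot be told apart there.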

Additional observations from a re-analysis of the deposited data

Results flagged for a closer look

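The 3 results below were marked because the ratio between the same genotypes pointed opposite ways in the fractions, with deposited intervals apart in both. Actb in KO over WT had a log2 ratio of 0.10 in Gr1+Mac1+ and -0.15 in Lin- cells, a difference of 0.2471 (counting SE 0.02). Actg1 in KO over WT had 0.04 in Gr1+Mac1+ and -0.26 in Lin- cells, a difference of 0.3038 (counting SE 0.02). Tpm4 in KO over Het had 0.16 in Gr1+Mac1+ and -0.74 in Lin- cells, a difference of 0.8987 (counting SE 0.11), and it uses the Het Lin- library. With 1 library per group these differences were not tested against the spread between mice.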

How the results depend on the processing

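The 9 calls between the fractions numbered 8 to 9 in the 10 alternatives, and 8 to 8 when a pool was left out; Srf was the call lost, also without the filter on low values (adjusted p = 0.0582 by limma). Without the block the count was 9. Mkl2, not called, changed sign to 0.14 with rescaling by the median ratio and ranged from -0.28 to 0.0127 when a pool was left out, positive without KO; the cause was not tested. All genes were split 3507 higher to 5957 lower in Gr1+Mac1+ cells, and 4328 to 4688 after rescaling. Between genotypes, the 2-fold rule called 0 members in Het against WT Lin- cells and 2 at 1.5-fold; in KO against Het Lin- cells it called 1, with 3 at 1.5-fold and 0 with a pseudocount of 5. By the 25% rule, Het against WT Gr1+Mac1+ cells gave 0 and, with no minimum level, 1. The other 84 counts stayed within 1.5 times of their value. Under the genotype alternatives the share of all genes called was not taken, so those counts have no background beside them. Acta2 in Lin- cells rests on the fewest fragments, so its ratios there have the widest counting errors of the target genes.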
